A study of Mus musculus with 12 samples.

Results

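A set of 10 genes of microbial sensing was followed across epidermal scrapings of mouse skin with and without epidermal Pparg. They were the Toll-like receptors Tlr1, Tlr2, Tlr3, Tlr4, Tlr5, Tlr6, Tlr7 and Tlr9, together with Cd14 and Ly96. Cd14 delivers ligands, and Ly96 sits on Tlr4 and is needed for lipopolysaccharide binding. The 10 genes were chosen by gene symbol and not by a cut on their values, though with earlier results of these data known. All 10 were among the 14533 genes of the deposited count table.

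Untreated, non-lesional dorsal skin was taken from 6 WT and 6 Pparg-/-epi mice of the C57BL/6 strain, with 1 library per mouse. All 12 mice carried Pparg flox/flox. Pparg-/-epi mice also carried Cre under the Krt14 promoter, which is active in basal keratinocytes, and WT siblings were Cre-/-. WT mice were 8 to 13 weeks old by the labels, 3 female and 3 male, and Pparg-/-epi mice were 8 to 13 weeks old, 4 female and 2 male. Skin was frozen and scraped until the vascular bed under the epidermis showed, so the RNA came from epidermis and some superficial dermis. In such bulk samples, more cells of a type and more RNA per cell cannot be told apart.

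Toll-like receptors are membrane proteins that bind conserved microbial molecules and some products of damaged tissue, and signal to NF-kB and interferon regulatory factors. Tlr1, Tlr2, Tlr4, Tlr5 and Tlr6 act mainly at the cell surface, whereas Tlr3, Tlr7 and Tlr9 sense nucleic acids in endosomes. In skin they are found on keratinocytes and on resident immune cells such as macrophages, Langerhans cells and mast cells.

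Total counts per library ranged from 10120840 to 18851255 and did not separate the genotypes (exact permutation test, two-sided, p = 0.965, n = 6 in each group). A single count was worth 0.0520 to 0.107 CPM (counts scaled to library size with TMM factors, which correct for differences in library composition). Pparg counts were 5 to 269 for WT mice, compared with 16 to 107 for Pparg-/-epi mice. Excision leaves a shortened transcript that is still counted, so these counts do not check the genotype. Keratinocyte markers were abundant in all libraries, with summed levels of 17328 to 42623 CPM in WT and 27922 to 50019 CPM in Pparg-/-epi mice. Of the 7 keratinocyte markers, Krt14 alone passed the call threshold given below (log2 fold change 0.98, edgeR adjusted p = 0.00559). Dsg1a went the other way (log2 fold change -0.598, edgeR adjusted p = 0.0310) and fell just short of the 0.6 cut. In all, 3 of the 7 markers had a log2 fold change above 0. WT replicate 2 had the lowest keratinocyte sum and the highest macrophage and monocyte sum (858 CPM, against 106 to 433 CPM in the other WT mice), and WT replicate 5 held 9448 CPM of skeletal muscle markers. Genotype differences of the 10 genes that turned or moved by over 1.5-fold without WT replicate 2 are given both ways.

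Tlr1 and Tlr6 lie beside each other on chromosome 5 of mm10 on the minus strand. Tlr1 spanned 64924680 to 64933558 and Tlr6 spanned 64953095 to 64960034 in the count table. As Tlr1 was called and its neighbour Tlr6 was not, the 250 bases before each RefSeq start site (GRCm38, the same build as mm10) are shown 5′ to 3′ on the minus strand, with motif matches in capitals. The Tlr1 window is chr5:64933559-64933808 and the Tlr6 window is chr5:64960049-64960298.
Tlr1 upstream: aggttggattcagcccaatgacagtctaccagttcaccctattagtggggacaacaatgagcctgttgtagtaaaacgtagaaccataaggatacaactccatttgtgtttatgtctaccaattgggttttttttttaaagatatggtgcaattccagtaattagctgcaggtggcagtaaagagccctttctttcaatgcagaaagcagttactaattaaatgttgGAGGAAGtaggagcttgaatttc
Tlr6 upstream: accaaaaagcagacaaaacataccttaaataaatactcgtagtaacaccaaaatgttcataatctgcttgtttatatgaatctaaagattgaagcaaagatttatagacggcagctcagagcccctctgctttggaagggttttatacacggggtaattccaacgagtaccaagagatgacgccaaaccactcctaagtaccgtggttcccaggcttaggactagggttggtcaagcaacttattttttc

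In all, 6 motifs were searched on both strands, and the only match in these windows was GAGGAAG, the core of the motif of the myeloid factor PU.1, which began 23 bases before the Tlr1 start. The same letters were in 10.6% of the 32851 RefSeq upstream windows of this length. No match was found in either window to the NF-kB letters GGGANTTTC (0.941% of all windows), the interferon response letters GAAANNGAA (7.13%), the AP-1 letters TGANTCA (6.75%), the C/EBP letters TTGCNNAA (9.56%) or the PPAR direct repeat letters GGTCANAGG (1.43%). RefSeq lists a further Tlr6 start, with the window chr5:64959117-64959416, whose upstream 250 bases held 2 overlapping matches to the interferon response letters and 1 to the C/EBP letters. It also lists a further Tlr1 start, with the window chr5:64932650-64932949, whose upstream 250 bases held no match to any of the 6 motifs. GAGGAAG was also found 112 bases before the start of Tlr9, which was not called between genotypes. A match of letters is a description of the sequence and was not tested for binding.

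Tlr1, which pairs with Tlr2 to bind triacylated bacterial lipopeptides, rose in Pparg-/-epi mice. WT mice had 12, 36, 7, 10, 4 and 7 counts and Pparg-/-epi mice had 56, 38, 51, 16, 27 and 21 counts. Levels ranged from 0.316 to 1.91 CPM in WT (median 0.709) and from 1.33 to 3.09 CPM in Pparg-/-epi mice (median 2.37). The groups overlapped through 1 WT mouse, replicate 2, which lay above Pparg-/-epi replicates 10 and 12, whereas the 5 other WT mice lay below every Pparg-/-epi mouse. The fitted rise was 2.81-fold (95% interval 1.55 to 5.10, log2 fold change 1.49, standard error 0.40, edgeR quasi-likelihood test, adjusted p = 0.0241). A gene is called here when it moved by 0.6 or more on the log2 scale in either direction and its adjusted p was below 0.05. Tlr1 was the only called member, 1 of 10, where 10.3% of all genes were called and 5.19% were called higher.

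The Tlr1 call rested on few counts. It was lost without WT replicate 4 (edgeR adjusted p = 0.0558), WT replicate 6 (0.0529), Pparg-/-epi replicate 7 (0.0591) or Pparg-/-epi replicate 9 (0.0613), with log2 fold changes of 1.36 to 1.44 in these 4 fits. With WT replicate 2 left out it stood at a log2 fold change of 1.96 (edgeR adjusted p = 0.00142). Of the marker lists, the mast cell list was called higher in 6 of 6 genes (Cpa3, Mcpt4, Tpsb2, Cma1, Kit and Fcer1a). Its sums were 19.3 to 90.2 CPM in WT and 131 to 233 CPM in Pparg-/-epi mice. Fcer1a, the high-affinity IgE receptor chain, had at most 1 count in any WT library. It was listed through the Pparg-/-epi libraries alone and is counted in the 6 of 6. Of the neutrophil list 2 of 7 genes were analysed here, Cxcr2, which was called, and Csf3r, which was not (edgeR adjusted p = 0.0688). Ly6g, Mpo, Retnlg, Elane and Camp were not in the count table. The sums of the 2 genes were 0.944 to 4.92 CPM in WT and 9.71 to 17.0 CPM in Pparg-/-epi mice. Most of this was Cxcr2, which averaged 10.6 CPM in Pparg-/-epi mice, against 2.82 CPM for Csf3r. The 5 highest libraries for Tlr1 were WT replicate 2 and Pparg-/-epi replicates 7, 8, 9 and 11. They were also the 5 highest for the summed Langerhans cell and MHC class II markers. The 5 highest mast cell sums were those of Pparg-/-epi replicates 8 to 12, and the 5 highest neutrophil sums those of replicates 7 to 11. The part of these cell types in the Tlr1 difference was not tested.

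**Figure D1:**
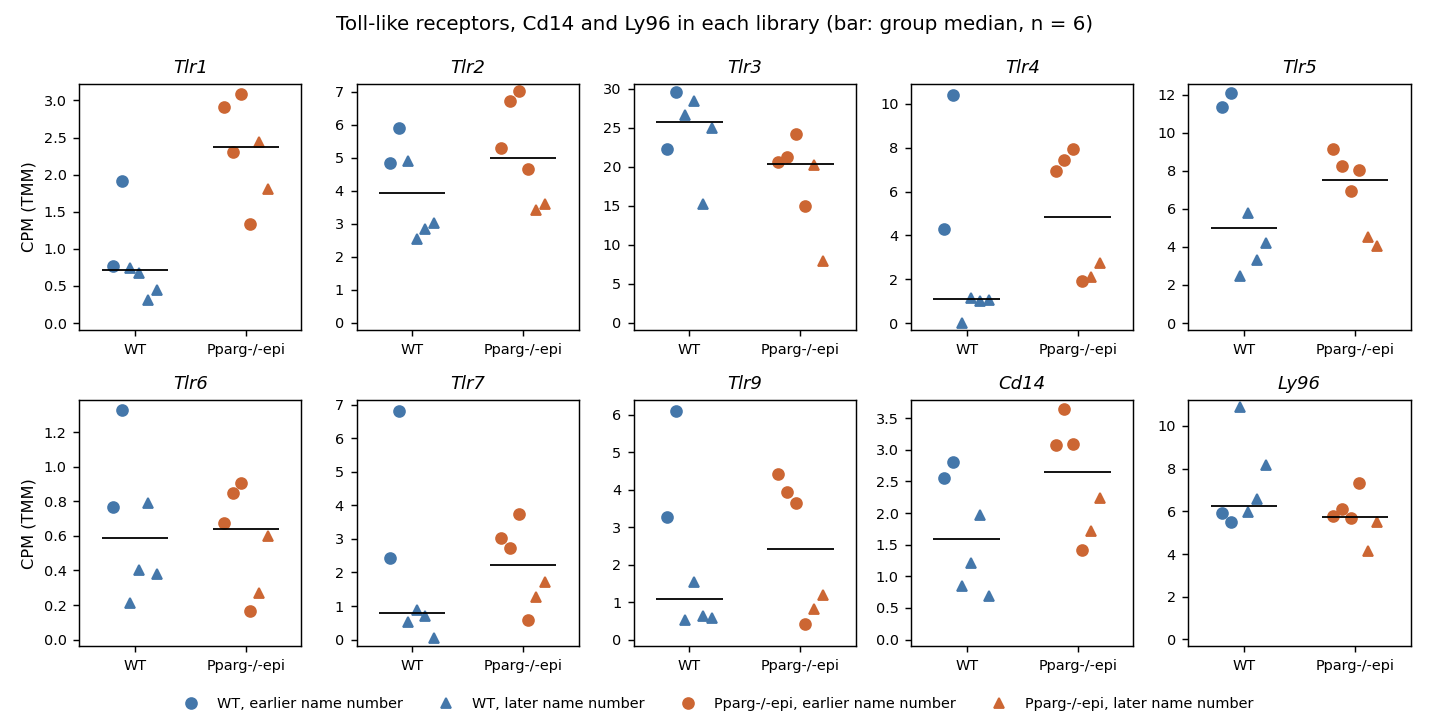
CPM of each gene (y axis, linear, own scale per panel) in the 6 WT and 6 Pparg-/-epi libraries, with bars at the group medians, circles for mice with an earlier and triangles for mice with a later number in the mouse name. Tlr1 lay between 1.33 and 3.09 CPM in Pparg-/-epi mice and between 0.316 and 1.91 CPM in WT, and the groups of every other gene overlapped more widely.

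Tlr6, the neighbour of Tlr1 and the alternative partner of Tlr2 for diacylated lipopeptides, was not called. Its counts were 2 to 25 for WT and 2 to 15 for Pparg-/-epi libraries, which corresponds to 0.213 to 1.33 CPM (median 0.585) and 0.166 to 0.908 CPM (median 0.639). The groups overlapped almost fully, with a log2 fold change of -0.16 (95% interval -1.19 to 0.87, edgeR adjusted p = 0.863). Without WT replicate 2 its sign turned (0.18) and it was still not called. Tlr1 and Tlr6 share sequence, as 10.6% of the 75-base stretches of Tlr1 transcripts occur in transcripts of other genes, Tlr6 among them, and 9.25% of those of Tlr6 occur in Tlr1. The authors removed reads that map to several places, so the reads of such stretches are not fully counted for either gene.

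Tlr2, the shared partner of both receptors (chromosome 3, 83836272 to 83841608), had 2.55 to 5.89 CPM in WT (median 3.94) and 3.44 to 7.03 CPM in Pparg-/-epi mice (median 4.98). Replicates 8 and 9 of the Pparg-/-epi mice lay above every WT mouse and the other 4 lay within the WT range. The log2 fold change of 0.36 (95% interval -0.23 to 0.94) was not called (edgeR adjusted p = 0.419). The SD of log2 CPM between mice was 0.49 in WT and 0.42 in Pparg-/-epi.

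Differences in log2 CPM between 2 receptors of the same mouse were taken for 10 pairs and compared by exact permutation over the 924 splits of the mice. Tlr1 less Tlr6 was 0.26 ± 0.78 (SD, n = 6) in WT and 1.86 ± 0.53 (SD, n = 6) in Pparg-/-epi mice on the log2 scale, a difference of 1.60 (exact permutation test, two-sided, p = 0.00433, Benjamini-Hochberg adjusted over the 10 pairs p = 0.0216). Tlr2 less Tlr1 was 2.24 ± 0.47 (SD, n = 6) in WT and 1.10 ± 0.45 (SD, n = 6) in Pparg-/-epi mice, a difference of -1.14 (exact p = 0.00433, adjusted p = 0.0216). The excess of Tlr2 over Tlr1 RNA was thus smaller in Pparg-/-epi mice, and the distance between the neighbours Tlr1 and Tlr6 was larger. Both pairs use the same Tlr1 counts that were called above, so they are not independent of the Tlr1 call.

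Tlr2 less Tlr3 also differed, with -2.61 ± 0.48 (SD, n = 6) in WT and -1.77 ± 0.46 (SD, n = 6) in Pparg-/-epi mice (difference 0.84, exact p = 0.0108, adjusted p = 0.0361). The 7 other pairs did not pass, with adjusted exact p from 0.247 to 0.396. Without Pparg-/-epi replicate 7 or without Pparg-/-epi replicate 12 none of the 10 pairs passed, with an adjusted exact p of 0.0541 for Tlr1 less Tlr6 and for Tlr2 less Tlr1 in both cases. Without WT replicate 2, 5 pairs passed, among them Tlr4 less Ly96 with a difference of 2.41 and Tlr3 less Tlr7 with a difference of -1.78 (adjusted exact p = 0.0476 for both). Tlr2 less Tlr3 passed in 5 of the 12 sets that left out 1 mouse, and Tlr1 less Tlr6 and Tlr2 less Tlr1 each passed in 10.

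**Figure D2:**
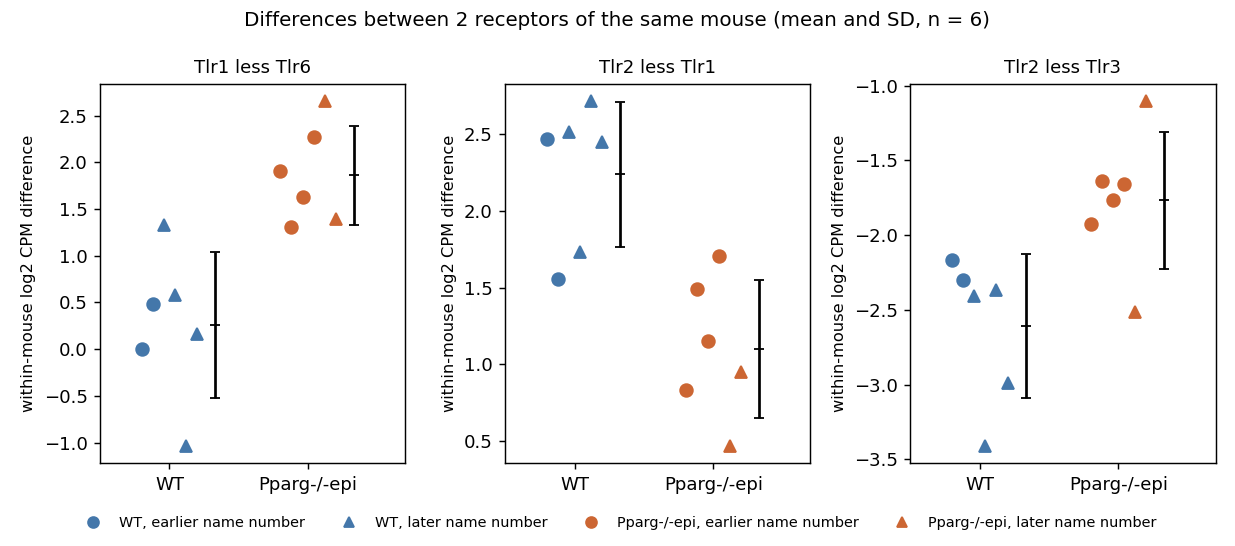
Within-mouse differences in log2 CPM (y axis) between 2 receptors in WT and Pparg-/-epi mice, with the mean and SD of 6 mice beside the points. The Tlr1 less Tlr6 means were 0.26 in WT and 1.86 in Pparg-/-epi mice, the Tlr2 less Tlr1 means were 2.24 and 1.10, and the Tlr2 less Tlr3 means were -2.61 and -1.77.

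The receptor complex for lipopolysaccharide is formed by Tlr4 and Ly96, with Cd14 as the protein that delivers the ligand. Tlr4 (chromosome 4, 66827811 to 66842796) had 67, 196, 0, 17, 13 and 17 counts in WT and 133, 123, 131, 23, 23 and 32 counts in Pparg-/-epi mice. Each group was split, as 2 WT and 3 Pparg-/-epi mice lay between 4.28 and 10.4 CPM and the other 7 mice lay at or below 2.75 CPM. In WT replicate 3 no Tlr4 read was counted, which allows up to 0.320 CPM (3 counts, counting error only). The log2 fold change was 0.68 (95% interval -1.03 to 2.39, edgeR adjusted p = 0.626). Without WT replicate 2 it was 1.65 and was still not called.

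Ly96, a small secreted protein that sits on Tlr4 and is needed for lipopolysaccharide binding (chromosome 1, 16688456 to 16709605), had 5.52 to 10.9 CPM in WT (median 6.27) and 4.16 to 7.32 CPM in Pparg-/-epi mice (median 5.73). Its log2 fold change was -0.31 (95% interval -0.75 to 0.12, edgeR adjusted p = 0.333). Unlike Tlr4 it showed no split of the mice, and its highest level was 2.61 times its lowest over all 12 libraries. Cd14 had 0.692 to 2.81 CPM in WT (median 1.59) and 1.41 to 3.64 CPM in Pparg-/-epi mice (median 2.65), and 3 Pparg-/-epi mice, replicates 7, 8 and 9, lay above every WT mouse. The log2 fold change of Cd14 was 0.58 (95% interval -0.24 to 1.40, edgeR adjusted p = 0.339).

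Among the receptors for nucleic acids, Tlr3, which binds double-stranded RNA, was the most abundant (chromosome 8, 45395665 to 45410539). It had 15.3 to 29.6 CPM in WT (median 25.8) and 7.90 to 24.2 CPM in Pparg-/-epi mice (median 20.4). All 6 Pparg-/-epi mice lay below the WT median, but WT replicate 5 lay below 4 of them. The log2 fold change was -0.43 (95% interval -0.95 to 0.09, edgeR adjusted p = 0.258). An annotated antisense gene, Gm45542, overlaps Tlr3, and the strand setting of the counting is not given in the sources used here, so its reads cannot be told apart from those of Tlr3.

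Tlr7, the receptor for single-stranded RNA (chromosome X, 167304926 to 167330571), had 38, 128, 5, 13, 9 and 1 counts in WT and 58, 45, 62, 7, 14 and 20 counts in Pparg-/-epi mice. Tlr9, the receptor for unmethylated CpG DNA (chromosome 9, 106222598 to 106226876), had 51, 115, 5, 23, 8 and 9 counts in WT and 85, 65, 60, 5, 9 and 14 counts in Pparg-/-epi mice. Both were high in the same 5 libraries that were high for Tlr4. The log2 fold changes were 0.18 for Tlr7 (95% interval -1.45 to 1.82, edgeR adjusted p = 0.906) and 0.19 for Tlr9 (95% interval -1.33 to 1.71, edgeR adjusted p = 0.895). Without WT replicate 2 they were 1.22 and 0.87, and neither was called.

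Tlr5, the receptor for bacterial flagellin (chromosome 1, 182954788 to 182976044), had 2.45 to 12.1 CPM in WT (median 5.00) and 4.04 to 9.15 CPM in Pparg-/-epi mice (median 7.52). The WT mice held both the lowest and the highest values, and the log2 fold change was 0.06 (95% interval -0.78 to 0.90, edgeR adjusted p = 0.944), or 0.32 without WT replicate 2, again not called. Over the 10 genes the median log2 fold change was 0.18, with 7 of 10 above 0, where the median over all genes was -0.01.

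**Figure D3:**
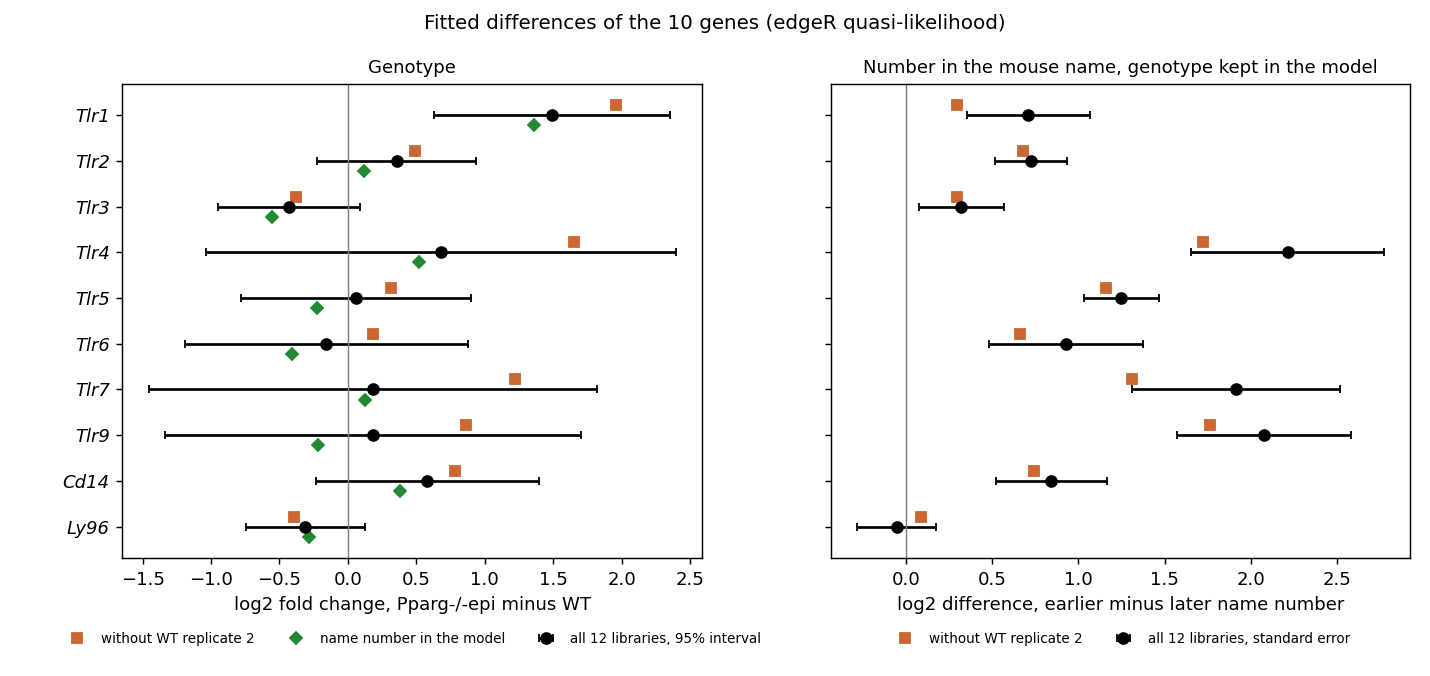
Left, log2 fold change of Pparg-/-epi against WT (x axis) for each gene from all 12 libraries with 95% intervals, without WT replicate 2, and with the name number in the model. Right, log2 difference between mice of earlier and later name number with its standard error. The interval of Tlr1 alone excluded 0 on the left, and the largest differences on the right were those of Tlr4 (2.21), Tlr9 (2.08) and Tlr7 (1.91).

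Levels of different genes were compared as CPM per kilobase of the counted gene model. In WT mice Ly96 stood highest at 11.9 ± 3.37 (SD, n = 6) CPM per kilobase, followed by Tlr3 at 5.67 ± 1.21 (SD, n = 6) and Tlr5 at 2.04 ± 1.31 (SD, n = 6). Ly96 was above Tlr3, and Tlr3 above Tlr5, in 6 of 6 mice of each genotype. Then came Tlr2 (1.41 ± 0.483), Cd14 (1.01 ± 0.540), Tlr4 (0.777 ± 1.02), Tlr9 (0.607 ± 0.640), Tlr7 (0.478 ± 0.635), Tlr1 (0.265 ± 0.186) and Tlr6 (0.249 ± 0.155), all as mean CPM per kilobase ± SD with n = 6. From Tlr5 downwards neighbours in this order differed by less than the larger of their SDs, although within mice Tlr9 was above Tlr7 in 6 of 6, and Tlr5 above Tlr2, Tlr2 above Cd14 and Cd14 above Tlr4 in 5 of 6 each. The lower means leaned on WT replicate 2. Over the 5 other WT mice the means were 0.391 ± 0.422 for Tlr4, 0.377 ± 0.337 for Tlr9 and 0.232 ± 0.225 for Tlr7, and Tlr6 (0.196 ± 0.0984) and Tlr1 (0.193 ± 0.0654) changed places at nearly the same level, all in CPM per kilobase (SD, n = 5).

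In Pparg-/-epi mice the order was the same from Ly96 (9.55 ± 1.69 CPM per kilobase, SD, n = 6) to Tlr4 (1.26 ± 0.747). Tlr1 then followed at 0.758 ± 0.217 (SD, n = 6) CPM per kilobase, ahead of Tlr9 (0.693 ± 0.513) and Tlr7 (0.547 ± 0.299), and Tlr6 stayed last at 0.223 ± 0.116. Tlr1 was above Tlr9 in 3 of 6 Pparg-/-epi mice, so this part of the order was not settled.

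The same libraries were high for several of the genes, whatever their genotype. The 5 highest libraries were WT replicates 1 and 2 and Pparg-/-epi replicates 7, 8 and 9 for each of Tlr4, Tlr7, Tlr9 and Cd14. The same 5 were highest for the summed macrophage and monocyte markers and for the summed endothelial markers. The top 5 of Tlr1, Tlr2, Tlr5 and Tlr6 shared 4 with this set, that of Tlr3 shared 2 and that of Ly96 shared 1. Of the other marker sums, those of the Langerhans cell and MHC class II, fibroblast and melanocyte lists also shared 4. The neutrophil, adipocyte, and B cell and plasmacytoid dendritic cell sums shared 3. The mast cell and skeletal muscle sums shared 2, the keratinocyte sum 1 and the T cell sum 0. After the mean of each genotype was subtracted, Spearman's rho of log2 CPM over the 12 libraries was 0.80 to 0.94 between any pair of Tlr4, Tlr6, Tlr7, Tlr9 and Cd14, and -0.53 to 0.22 between Ly96 and the 9 other genes. All genes of a library share its depth, RNA quality and tissue makeup, and the values are descriptions with no test.

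None of the 12 macrophage and monocyte markers was called between genotypes, and their sums were 106 to 858 CPM in WT and 273 to 507 CPM in Pparg-/-epi mice. Of the 6 endothelial markers, Emcn, an endothelial sialomucin, was called (log2 fold change 1.79, edgeR adjusted p = 0.0340), and the sums were 7.99 to 133 CPM in WT and 33.4 to 210 CPM in Pparg-/-epi mice. No marker of these 2 lists was at 0 in any library. Of the Langerhans cell and MHC class II list, Epcam was called (log2 fold change 1.04), while its defining marker Cd207 had a log2 fold change of 0.0024 and the sums were 1569 to 3575 CPM in WT and 2124 to 2397 CPM in Pparg-/-epi mice. Fibroblast markers, 0 of 6 called, summed to 1014 to 34533 CPM in WT, with the highest sum in WT replicate 1, and to 5324 to 11169 CPM in Pparg-/-epi mice. The part of these cell types in the members' levels was not tested.

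The 5 high libraries all came from mice whose names carry an earlier number (192, 195, 217 or 222), as did Pparg-/-epi replicate 10, and the other 6 mice carry 225 or 226. The labels do not say what this number means. Earlier and later stand here for a lower and a higher number, and no order in time is given. It was not balanced, with 2 WT and 4 Pparg-/-epi mice of earlier number and 4 WT and 2 Pparg-/-epi mice of later number. RIN, a measure of RNA integrity, was 7.4 to 8.6 in the earlier mice and 5.7 to 7.1 in the later mice, so the number and RNA integrity cannot be told apart. Among WT mice age went with the number too, at 8 and 9 weeks in the earlier and 12 or 13 weeks in the later mice. Earlier Pparg-/-epi mice were 8 to 13 weeks old and later ones 10 and 12 weeks. Pparg-/-epi replicates 7, 8 and 9 were female and replicate 10 was male. Age and sex were not in the model of earlier against later mice. This comparison and that of RIN were added after the members' values had been seen. The split by number puts all 5 libraries that were high for Tlr4, Tlr7, Tlr9 and Cd14 in the same group. The calls and shares of members below are therefore descriptions and no independent test.

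With genotype kept in the model, 4 of 10 genes were called between earlier and later mice, all higher in earlier mice, where 7.9% of all genes were called and 6.54% were called higher in earlier mice. Tlr4 was 1.91 to 10.4 CPM in earlier and 0 to 2.75 CPM in later mice (log2 difference 2.21, standard error 0.56, edgeR adjusted p = 0.0371). Tlr9 was 0.416 to 6.10 CPM in earlier and 0.533 to 1.55 CPM in later mice (log2 difference 2.08, standard error 0.50, edgeR adjusted p = 0.0347). The lowest Tlr9 value of all was thus that of an earlier mouse, Pparg-/-epi replicate 10.

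Tlr5 was 6.96 to 12.1 CPM in earlier and 2.45 to 5.78 CPM in later mice, without overlap (log2 difference 1.25, standard error 0.22, edgeR adjusted p = 0.0321). Tlr2 differed by 0.72 (standard error 0.21, edgeR adjusted p = 0.0468), and Tlr7 by 1.91 without being called (edgeR adjusted p = 0.0558), or by 1.31 without WT replicate 2. Ly96 had a log2 difference of -0.05 (0.085 without WT replicate 2) and Tlr3 one of 0.32, and neither was called. The count of calls moved with single mice. Without WT replicate 2 none of the 4 was called (log2 differences of 1.72 for Tlr4, 1.77 for Tlr9, 1.16 for Tlr5 and 0.68 for Tlr2). Without Pparg-/-epi replicate 10, 7 of 10 were called, with Tlr6 (1.06, edgeR adjusted p = 0.0486), Tlr7 (2.13, adjusted p = 0.0115) and Cd14 (0.96, adjusted p = 0.0242) added. Over the 12 sets that left out 1 mouse Tlr4, Tlr5 and Tlr9 were called in 3 and Tlr2 in 1.

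With this number in the model, Tlr1 kept its call between genotypes (log2 fold change 1.36, edgeR adjusted p = 0.0247). Among earlier mice Tlr1 was 0.767 and 1.91 CPM in the 2 WT and 1.33 to 3.09 CPM in the 4 Pparg-/-epi mice, and among later mice it was 0.316 to 0.746 CPM in the 4 WT and 1.80 and 2.44 CPM in the 2 Pparg-/-epi mice. Tlr1 itself had a log2 difference of 0.71 between earlier and later mice (edgeR adjusted p = 0.176), or 0.30 without WT replicate 2. Slopes on RIN, with genotype kept, passed an adjusted p of 0.05 for Tlr4, Tlr5, Tlr7 and Tlr9, at 1.07, 0.58, 0.97 and 1.12 log2 units per RIN unit (edgeR adjusted p from 0.0385 to 0.0440). Of all genes 13.1% passed this test and 7.64% passed it with a higher level at higher RIN.

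**Figure D4:**
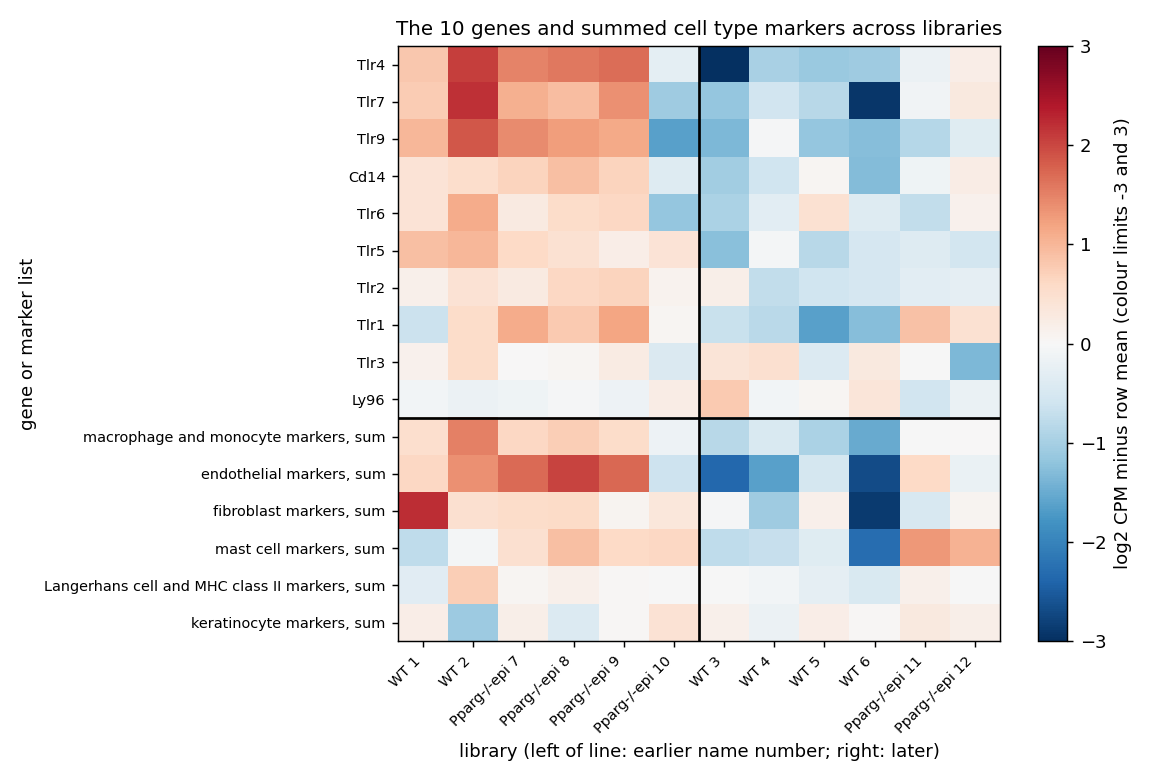
Log2 CPM minus the row mean (colour, limits -3 and 3) of the 10 genes and of summed marker lists (rows) in the 12 libraries (columns), with mice of earlier name number left of the vertical line. Tlr4, Tlr7, Tlr9 and Cd14 were highest in 5 of the 6 libraries left of the line, as were the macrophage and endothelial sums, while Ly96 and Tlr3 were not.

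For each gene the genes with the most similar pattern were taken by Spearman's rho of log2 CPM after subtraction of the genotype means, over 12 libraries and among all genes of mean CPM 1 or more. Tlr1 was most like C5ar1, the receptor for complement fragment C5a (rho 0.94), then Lgi3 (0.94) and Kif21b (0.93). Those nearest to Cd14 were Adgrf5 (0.99), Arhgef15 (0.99) and S1pr1 (0.98). Tlr4 was nearest to Rnf141 (0.99), Cdc42bpa (0.98) and Kansl1 (0.98), and Tlr7 to Fam102b (0.99), Dpep1 (0.97) and Fez1 (0.97). Tlr9 was nearest to Galnt16 (0.99), Gbgt1 (0.99) and Agtr1a (0.98), and Tlr6 to Anxa3, Cdc42ep3 and Gpm6a (0.97 each). Tlr3 was nearest to Gtf3c3 (0.98), Zfp287 (0.95) and Dhx57 (0.92), Tlr5 to Bahcc1, Lrrc8b and Map3k3 (0.94 each), and Tlr2 to Mpzl1, Rab34 and Slco1a5 (0.90 each). Ly96 was nearest to Mrpl3 (0.94), Emd (0.93) and Tuba1b (0.88). These are the highest values among all genes searched and carry no test.

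The rest of the pathway was described by role from lists of 97 further genes, of which 85 were analysed here. Of these 85, 19 were called higher with Pparg-/-epi and 0 lower, where 5.19% of all genes were called higher, and the median log2 fold change was 0.30. The lists were chosen with earlier results of these data known and hold genes that the study had reported as raised. The share is therefore a description, and no set test was run. The other Toll-like receptors Tlr8, Tlr11 and Tlr13 were not called, with log2 fold changes of 0.61, 0.15 and 1.27 (edgeR adjusted p of 0.156 or more). Neither the 9 accessory proteins, which fold or assist the receptors, nor the 6 adaptors, which carry the signal from the receptor, held a called gene, and the common adaptor Myd88 had a log2 fold change of 0.13 (edgeR adjusted p = 0.581). Myd88 is named after its value was seen.

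Upstream of the receptors, 2 of 6 endogenous ligands were called. S100a8 averaged 1.91 ± 1.34 CPM for WT against 12.6 ± 3.78 CPM for Pparg-/-epi, and its partner S100a9 was 2.66 ± 2.67 and 17.3 ± 3.74 CPM (SD, n = 6 in each group). Together they form calprotectin, a protein released by keratinocytes and neutrophils that is described as a Tlr4 ligand. Their log2 fold changes were both 2.74 (edgeR adjusted p = 0.00165 for S100a8 and 0.00403 for S100a9).

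Downstream, 1 of 21 kinases and ubiquitin ligases was called, Map3k8, which activates ERK signalling (log2 fold change 0.69, edgeR adjusted p = 0.00792). Of 10 transcription factors 3 were called, namely Irf7, an interferon regulatory factor (1.49, adjusted p = 0.00698), the AP-1 subunit Jun (0.69, adjusted p = 0.00487) and the NF-kB subunit gene Nfkb2 (0.63, adjusted p = 0.00341). Of 17 inhibitors 4 were called. They were Irak3, which blocks signalling at the receptor complex (1.10, adjusted p = 0.000356), Zc3h12a, an RNase that degrades cytokine mRNAs (1.13, adjusted p = 0.000451), Bcl3, a nuclear member of the IkB family (1.91, adjusted p = 0.00134), and Tnip1, a partner of the ubiquitin editor A20 (0.66, adjusted p = 0.00765). All are edgeR log2 fold changes and adjusted p.

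Of 24 target genes 13 were analysed here, and 9 were called, all higher, with a median log2 fold change of 1.58 over the 13. The 4 with the smallest adjusted p were the cytokine subunit Il23a (log2 fold change 3.05, edgeR adjusted p = 0.00673), the monocyte chemokine Ccl2 (2.48, adjusted p = 0.00699), the adhesion molecule Icam1 (0.78, adjusted p = 0.00856) and the iron-binding protein gene Lcn2 (2.80, adjusted p = 0.0106). The table holds genes above 0.5 CPM in at least 6 libraries, and Il23a was above it in 1 of 6 WT and 6 of 6 Pparg-/-epi libraries, so it was listed through the group where it was high. The same holds for Il12b, the partner subunit of Il23a, which is named for this count after its values were seen. Both genes are counted in the 9 of 13 called targets, in their median and in the 19 of 85. Targets that did not pass the filter could not be called, so the 9 of 13 is a share of the listed targets only. Among the 10 receptor genes and partners, each was above 0.5 CPM in at least 3 libraries of each genotype.

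**Figure D5:**
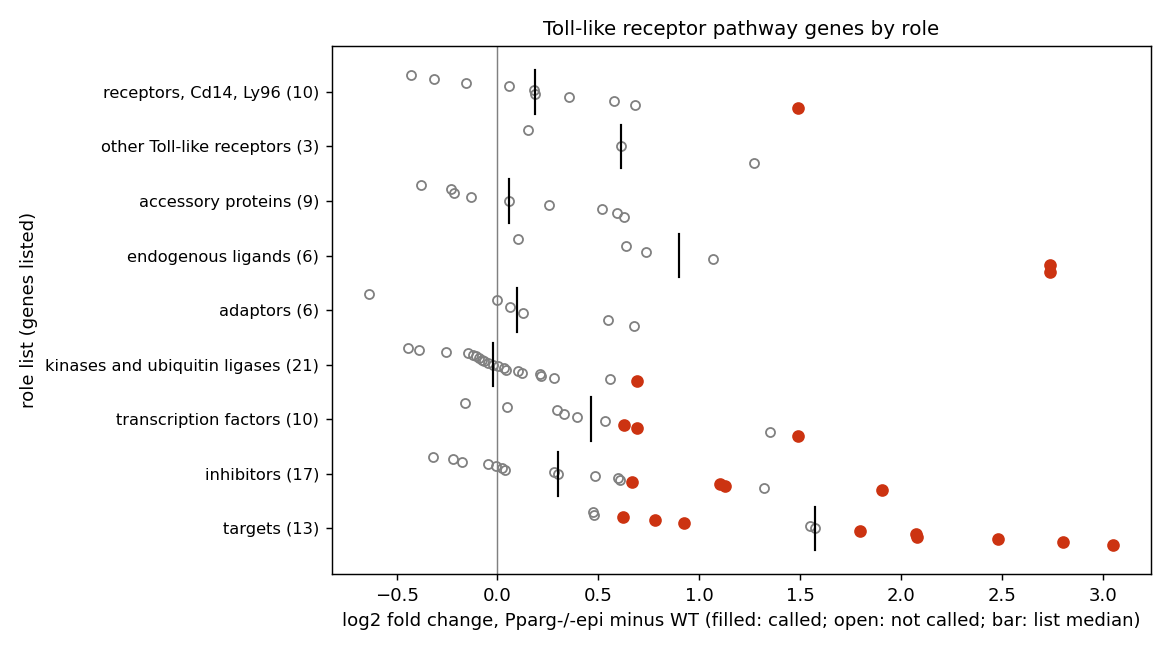
Log2 fold change of Pparg-/-epi against WT (x axis) of each listed gene by role (y axis, number of genes in brackets), with filled points for called genes and bars at list medians. Called genes numbered 1 of 10 among the receptors with Cd14 and Ly96, 0 of 6 among adaptors and 9 of 13 among targets. The called targets include Il23a and Il12b, which were listed through the Pparg-/-epi libraries.

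Both sexes were present in both groups, and the genotype difference was compared between them. No member differed between the sexes in edgeR's quasi-likelihood test of the interaction, with 0 of 10 at an adjusted p under 0.05 and 0 of 10 at an unadjusted p under 0.05, and the same counts in the likelihood ratio test. Over all genes 0 passed the adjusted and 5.1% passed the unadjusted threshold in the quasi-likelihood test, so the 0 of 10 is not particular to these genes. The intervals were wide. For Tlr1 the log2 fold change was 1.40 in females and 1.33 in males, with an interaction of -0.04 (95% interval -1.98 to 1.89), and for Cd14 it was 0.87 in females and -0.014 in males, with an interaction of -0.86 (95% interval -2.63 to 0.91). In females alone, 3 WT and 4 Pparg-/-epi mice, Tlr1 was not called (edgeR adjusted p = 0.146).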

How the data were processed

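RNA of 12 epidermal scrapings was sequenced as paired 75-base reads on an Illumina HiSeq after KAPA mRNA HyperPrep library construction. Per the labels and the study's methods, the authors aligned reads with STAR 2.5.2b to mm10, removed multi-mapped reads, and counted reads on refGene genes with featureCounts of Subread 1.5.1. The deposited values are counts, without normalization. The table had 14533 genes, each above 0.5 CPM in at least 6 libraries, and 2800 blank rows were dropped. Columns were matched to mice by the mouse names in the labels and, for Pparg-/-epi replicates 11 and 12, by the study's sample sheet.

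Counts were compared with the quasi-likelihood test of edgeR 4.0.16 (R 4.3.3) after TMM normalization, with a model of genotype alone, and p-values were adjusted by Benjamini-Hochberg over the 14533 genes. The likelihood ratio test that the study's methods name, DESeq2 1.42.0, other scalings, a mean count minimum of 50, added covariates and leaving out each library were alternatives. Within-mouse differences used log2 CPM with a prior count of 2 and exact permutation tests, where 6 mice against 6 allow p of 0.00216 at the smallest. The tests were checked on simulated data. Each library came from a separate mouse. The earlier against later name number and the slope on RIN were tested after the members' values had been seen.

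Members, role lists and marker lists were chosen with earlier results of these data known. The members were all named. Of other role lists, called genes were named and, beyond 4, the 4 with the smallest adjusted p. Of marker lists, called genes were named where discussed. Cd14 lies on chromosome 18 from 36725064 to 36726815 of mm10. Upstream sequences came from RefSeq windows on GRCm38, found for 6 of the 10 members and not for Tlr4, Tlr7, Cd14 or Ly96. Shared stretches and overlapping genes were taken from GENCODE M21 transcripts. Figures were drawn with matplotlib 3.10.9.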

Additional observations from a re-analysis of the deposited data

Results flagged for a closer look

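In 2 of the 20 groups of 6 libraries tested (10 genes in 2 genotypes), 1 library stood far from the others, where chance gives about 1 in 20. Both were WT replicate 2. Its Tlr1 level of 1.91 CPM was above the next WT library by 0.717 of the WT range, and its Tlr7 level of 6.793 CPM by 0.648 of the range, more than the 95% critical value of Dixon's test allows for 6 samples. This library also had the lowest keratinocyte marker sum and the highest macrophage and monocyte marker sum, and their part in these levels was not tested.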

How the results depend on the processing

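No paired analysis was run, as the replicates are numbered 1 to 12 across both groups, which gives no pairing. WT mice were siblings of Pparg-/-epi mice. WT replicate 2 and Pparg-/-epi replicate 10 share the name number 222, and what this number means is not given. Tlr1 kept its call in 8 of the 9 fits with other tests, scalings or covariates in which it was tested, and lost it in female mice alone. A minimum mean count of 50 removed Tlr1 and left 0 called members, and female mice alone, with fewer samples, gave 0 called members and 7 called pathway genes instead of 19. Among genes that were never called, the sign of the log2 fold change turned for Tlr7 with sex in the model (-0.012), for Tlr9 with sex (-0.18), RIN (-0.27) or the name number (-0.22) in the model, and for Tlr5 with RIN (-0.19) or the name number (-0.23) in the model and in females alone (-0.026). Age in the model raised Tlr4 from 0.68 to 1.44 and Tlr7 from 0.18 to 0.79, neither called. The cause was not tested. Leaving out each library in turn, the members called ranged from 0 to 1, the pathway genes called from 15 to 27, the within-mouse differences past the threshold from 0 to 5, the members with a genotype by sex interaction stayed at 0, and the difference in total counts ranged from -960080 to 555744. Log2 fold changes ranged from -0.11 to 0.32 for Tlr5, -0.35 to 0.18 for Tlr6, -0.072 to 1.22 for Tlr7 and -0.097 to 0.87 for Tlr9, and the earlier against later difference of Ly96 from -0.23 to 0.085. The count of all called genes was 1712 with the likelihood ratio test, 651 in female mice alone and 2249 without WT replicate 2, against 1493. Within-mouse differences from unscaled counts kept the calls of the same 3 pairs (Tlr1 less Tlr6 1.77, Tlr2 less Tlr1 -1.27, Tlr2 less Tlr3 0.85). Depth limits genes with few counts, such as Tlr1 at 4 to 56 and Tlr6 at 2 to 25 counts.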
